A study of Mus musculus with 23 samples.

Results

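Major histocompatibility complex (MHC) class I antigen presentation was followed through 10 genes chosen by name: B2m, H2-K1, H2-D1, Tap1, Tap2, Tapbp, Nlrc5, Psmb8, Psmb9 and Psmb10. All 10 were among the 24063 gene symbols listed in each of 23 libraries, and all 10 passed the filter on low counts that left 12867 genes for testing. The rule names them by their place in the pathway and uses no measured value, but they were chosen with earlier results of these data known.

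The libraries hold mouse cells sorted as CD138+ and B220-, the surface phenotype of plasma cells. The 4 VQ lines (VQ-D1, VQ-D2, then VQ-D4 and VQ-D5) carry a Vκ*MYC transgene, an Nras LSL Q61R/+ allele and the IgG1-Cre transgene. The genotype given for the line t-VK12653 is Vκ*MYC, with no Nras allele or Cre. Control cells carry IgG1-Cre, which VQ cells carry too. Cells of each line were taken from mice that had received transplanted cells of 1 donor, so a line stands for 1 tumour and its 4 libraries are not 4 tumours. VQ-D1 and t-VK12653 gave 2 bone marrow and 2 spleen libraries each, VQ-D2 gave 2 spleen and 2 lymph node libraries, VQ-D4 gave 1 bone marrow, 1 liver, 1 spleen and 1 lymph node library, and VQ-D5 gave 2 bone marrow and 2 lymph node libraries. Control comprised 3 bone marrow libraries. The sources used here state no age or sex.

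Class I molecules show peptides from inside the cell to CD8 T cells. The immunoproteasome subunits Psmb8, Psmb9 and Psmb10 replace the constitutive subunits Psmb5, Psmb6 and Psmb7 and change which peptides are cut. Tap1 and Tap2 form the transporter that carries peptides into the endoplasmic reticulum, Tapbp (tapasin) bridges that transporter to empty class I molecules, and the heavy chains H2-K1 and H2-D1 reach the surface with the light chain B2m. Nlrc5 is the transactivator of class I genes, and interferon signalling raises most members in many cell types.

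By the GENCODE annotation of GRCm38, the build of the deposited tables, 7 of the 10 members lie on chromosome 17 in or beside the mouse MHC. H2-K1 spans 33996017 to 34000347 on the minus strand, H2-D1 spans 35262730 to 35267499 on the plus strand, and Tapbp spans 33915899 to 33929292 on the plus strand. A compact block holds Psmb9 (34181987 to 34187764, minus strand), Tap1 (34187553 to 34197225, plus strand), Psmb8 (34197721 to 34201454, plus strand) and Tap2 (34203527 to 34216321, plus strand). B2m lies on chromosome 2 at 122147686 to 122153083 on the plus strand, and chromosome 8 holds Nlrc5 (94434356 to 94527272, plus strand) and Psmb10 (105935735 to 105938444, minus strand).

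Promoter windows of 250 bases before to 50 bases after the start were found for 8 of the 10 members in RefSeq (GRCm38.p6). The windows below are those of H2-K1, H2-D1, B2m, Tap1 and Psmb10. The light chain and both heavy chains were all highest in t-VK12653 and lowest in VQ-D5. The Tap1 window overlaps that of Psmb9. Psmb10 was highest in VQ-D2 and lower in t-VK12653 than in Control. Capitals mark matches, on either strand, to a repeat of GAAA with any 2 bases between its copies (like the interferon-stimulated response element), the kB site (the NF-kB motif), TGACG (a CRE half-site core), CCAAT (the CCAAT box) and CACGTG (the E-box bound by MYC and its relatives); 2 kB matches that overlap by all but 1 base appear as 1 run.
H2-K1 promoter, chr17:34000298-34000597, minus strand: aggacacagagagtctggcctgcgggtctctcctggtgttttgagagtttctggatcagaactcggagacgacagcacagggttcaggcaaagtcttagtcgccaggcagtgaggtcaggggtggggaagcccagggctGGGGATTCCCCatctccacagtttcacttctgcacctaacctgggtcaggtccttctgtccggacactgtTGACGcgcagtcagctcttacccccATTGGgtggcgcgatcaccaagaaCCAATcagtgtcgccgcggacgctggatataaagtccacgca
H2-D1 promoter, chr17:35262844-35263143, plus strand: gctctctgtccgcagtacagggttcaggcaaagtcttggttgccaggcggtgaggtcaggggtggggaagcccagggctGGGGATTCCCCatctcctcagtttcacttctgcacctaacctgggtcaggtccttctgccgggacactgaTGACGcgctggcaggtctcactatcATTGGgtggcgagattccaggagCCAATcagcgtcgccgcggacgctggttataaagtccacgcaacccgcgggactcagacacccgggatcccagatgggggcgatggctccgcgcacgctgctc
B2m promoter, chr2:122147437-122147736, plus strand: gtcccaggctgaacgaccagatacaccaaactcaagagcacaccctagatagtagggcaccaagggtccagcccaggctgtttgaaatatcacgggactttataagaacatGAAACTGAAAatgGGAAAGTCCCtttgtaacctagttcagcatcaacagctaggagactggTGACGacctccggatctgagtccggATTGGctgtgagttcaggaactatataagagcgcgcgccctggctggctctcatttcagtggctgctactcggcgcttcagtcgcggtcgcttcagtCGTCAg
Tap1 promoter, chr17:34187306-34187605, plus strand: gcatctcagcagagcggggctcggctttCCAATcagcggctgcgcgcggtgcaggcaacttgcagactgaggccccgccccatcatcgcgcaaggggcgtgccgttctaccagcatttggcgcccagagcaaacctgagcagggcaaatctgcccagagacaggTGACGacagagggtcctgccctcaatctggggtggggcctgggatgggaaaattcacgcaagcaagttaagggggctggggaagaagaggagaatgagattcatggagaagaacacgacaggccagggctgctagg
Psmb10 promoter, chr8:105938343-105938642, minus strand: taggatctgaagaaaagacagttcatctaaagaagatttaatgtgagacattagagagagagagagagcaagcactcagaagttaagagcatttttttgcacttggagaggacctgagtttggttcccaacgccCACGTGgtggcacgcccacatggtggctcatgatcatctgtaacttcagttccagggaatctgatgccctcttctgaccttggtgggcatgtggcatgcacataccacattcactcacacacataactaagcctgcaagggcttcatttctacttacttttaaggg

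The H2-K1 and H2-D1 windows were 90.4% identical over 228 aligned columns. Both hold a kB match, a TGACG match 70 bases on and a CCAAT match 25 bases further, and the B2m window holds the same 3 in the same order with spacings of 48 and 25 bases. B2m was the only member window of 8 with the GAAA repeat, which 3.44% of 32851 RefSeq promoter windows of the same length hold. The kB site was matched in 3 of 8 member windows against 8.46% of all windows, TGACG in 5 of 8 against 20.8%, CCAAT in 6 of 8 against 37.4%, and CACGTG in 1 of 8, that of Psmb10, against 7.15%. The Tap1 and Psmb9 windows share 275 bases, with starts 226 bases apart on opposite strands. Their TGACG and CCAAT matches are the same sites, counted for both windows. With the likeness of the H2-K1 and H2-D1 windows, the 8 member windows are thus not independent of each other. A match is a run of letters and does not show that a factor binds. The search took exact patterns only, so a window without a match may still hold a variant of the motif.

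Library totals ran from 2685579 to 10047314 counts. The mouse gene Myc had at least 524 CPM (counts scaled to library size with TMM factors) in every tumour library and at most 58.0 CPM in Control. Reads of the Vκ*MYC transgene and of the mouse gene were not told apart. Plasma cell markers summed to 4681 to 15533 CPM in tumour libraries and to 34802 to 64698 CPM in Control. All 11 listed markers were read in the Control libraries and 9 to 11 in the tumour libraries. Single markers went both ways. Against Control, 3 of 11 were called higher and 5 lower in VQ-D4 (median log2 fold change 0.08). The counts were 2 and 7 in VQ-D1, 2 and 8 in VQ-D2, and 1 and 7 in VQ-D5. In these 4 comparisons 54.3% to 63.8% of all tested genes were called. Summed marker levels of other cells differed between groups, in both directions. Neutrophil markers summed to 3.27 to 1145 CPM in tumour libraries, against 3084 to 8470 CPM in Control, B cell markers to 61.7 to 196 CPM in tumour libraries, against 527 to 824 CPM in Control, and monocyte and macrophage markers to 16.6 to 156 CPM in tumour libraries, against 374 to 1392 CPM in Control. T and NK cell and erythroid markers were also below Control in every tumour library. Endothelial and stromal markers summed to 121 to 380 CPM in VQ-D1, 27.6 to 749 CPM in VQ-D4 (749 in the liver library) and 9.78 to 41.9 CPM in the other lines, against 69.4 to 111 CPM in Control. Dendritic cell markers summed to 106 to 171 CPM in VQ-D1 and 41.7 to 89.7 CPM in the other lines, against 98.8 to 105 CPM in Control, and hepatocyte markers to 43.8 CPM in the liver library, 1.98 to 11.9 CPM in the other tumour libraries and 0.324 to 2.05 CPM in Control. The higher sums of VQ-D1 did not hold for most of these markers. Against Control, 1 of 6 tested endothelial and stromal markers was called higher there and 2 lower (median log2 fold change −1.08). Of 5 tested dendritic cell markers, 1 was higher and 2 were lower (median −1.41), where 59.4% of all tested genes were called. The part of other cells in differences from Control was not tested. In bulk RNA, fewer cells of a type and less RNA per cell cannot be told apart.

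**Figure D1:**
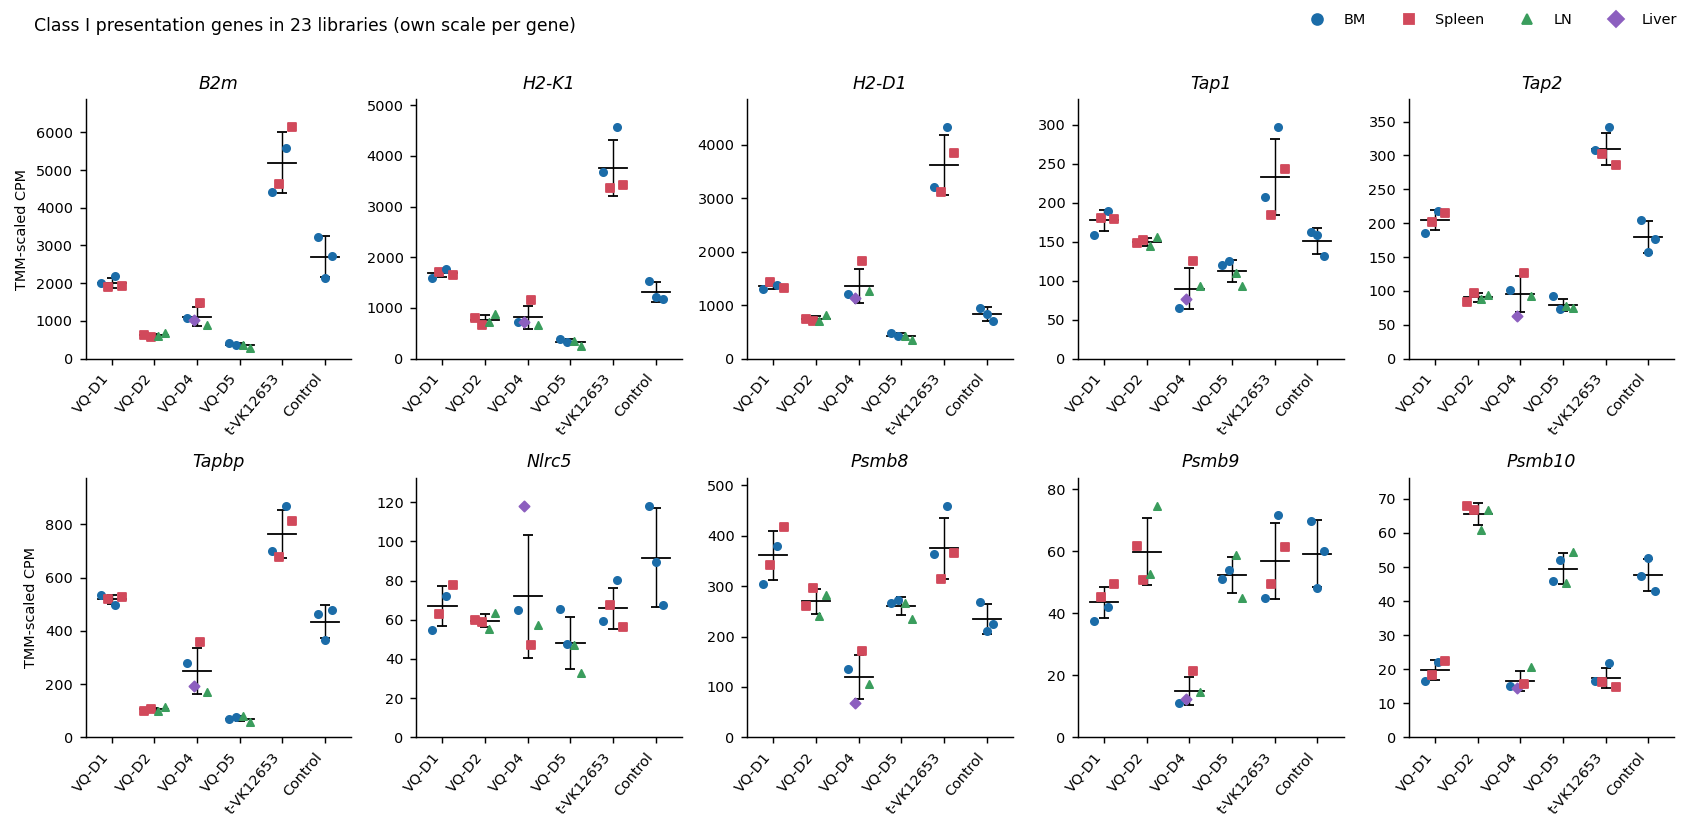
TMM-scaled CPM of the 10 members in every library, 1 panel per gene with its own scale from 0; groups run from the VQ lines to t-VK12653 and Control, points are libraries coloured by tissue (BM, bone marrow; LN, lymph node), and black lines are means with SD. B2m, H2-K1, H2-D1 and Tapbp are highest in t-VK12653 and lowest in VQ-D5, while Psmb10 is highest in VQ-D2.

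B2m, H2-K1 and H2-D1 were called higher in t-VK12653 than in each VQ line and in Control, while Nlrc5 was called different from t-VK12653 in no VQ line. Against Control, t-VK12653 had 7 members higher (B2m, H2-K1, H2-D1, Tap1, Tap2, Tapbp and Psmb8) and 1 lower (Psmb10), where 56.9% of all tested genes were called (28.8% higher, 28.1% lower). Calls are at an adjusted p under 0.05 in edgeR's quasi-likelihood test with Benjamini-Hochberg adjustment over all tested genes. The median log2 fold change of the members was 0.73, against 0.01 over all tested genes. In the same 7 members every t-VK12653 library was above every Control library. The share of all tested genes with such a separation was not determined, so this count describes the members only.

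The VQ lines differed among themselves against the same 3 Control libraries. VQ-D4 had 1 member higher and 9 lower, with 54.3% of all genes called (27.5% higher, 26.9% lower) and a member median of −0.70 on the log2 scale. In VQ-D5 none was higher and 6 were lower, with 63.8% of genes called (31.2% higher, 32.5% lower) and a median of −0.88. For VQ-D2, 1 was higher and 4 were lower (57.5% of genes called, 29.6% higher and 27.8% lower; median −0.27), and for VQ-D1, 2 were higher and 3 lower (59.4% of genes called, 29.7% in each direction; median 0.20). The medians over all tested genes lay between −0.05 and 0.02 in these 4 comparisons. The share of members called is thus read against a background in which most tested genes were called.

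Summed per donor line, the 4 VQ lines showed no member called against Control in edgeR's test (1 at an unadjusted p under 0.05, and 1 called by DESeq2), where 23% of 13870 genes were called (13.7% higher, 9.27% lower). The smallest adjusted p of a member there was 0.13, for B2m, with edgeR. Without VQ-D1 the count was 2, both lower.

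Against t-VK12653, the mean of the 4 VQ lines had 8 members lower and 1 higher, with 61.2% of genes called (29.6% higher, 31.6% lower) and a member median of −1.12 on the log2 scale against 0.02 over all genes. Each VQ line alone had at least 6 members called: 6 in VQ-D1, all lower (51.9% of genes called, 26.2% higher and 25.6% lower), 8 in VQ-D2, 7 lower and 1 higher (63.2% called, 32.8% higher and 30.4% lower), 8 in VQ-D4, all lower (49.8% called, 25.1% higher and 24.8% lower), and 8 in VQ-D5, 7 lower and 1 higher (64.5% called, 32.6% higher and 32% lower). Among these, the call of Tap1 in VQ-D1 was lost in 16 of 23 fits without 1 library (adjusted p up to 0.279), that of Psmb8 in VQ-D2 in 3 (up to 0.118) and that of Psmb8 in VQ-D5 without t-VK12653 library 3 (0.0999), all with edgeR. In the mean of the lines, Psmb9 was not called without VQ-D4 (log2 fold change −0.14, edgeR adjusted p = 0.411) and Psmb10 was not called among bone marrow libraries only (0.36, edgeR adjusted p = 0.175). This compares 4 tumours of one genotype with 1 of the other. With counts summed per donor line, which leaves t-VK12653 as a single sum assumed to vary like the others, 0 of the 9 calls were kept in edgeR's test, at adjusted p from 0.25 to 0.83, with log2 fold changes from −2.32 to 1.18. These comparisons share libraries with those against Control.

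**Figure D2:**
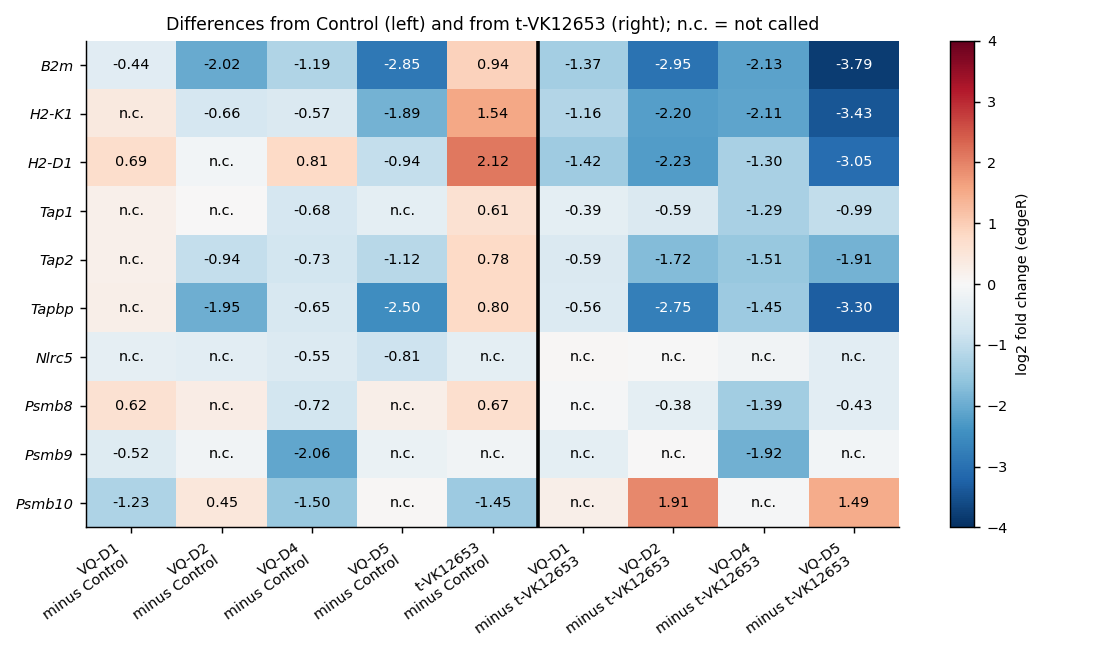
Log2 fold changes of the 10 members (rows) in each line minus Control (left of the black line) and in each VQ line minus t-VK12653 (right of it); colour gives the fold change, numbers are printed where the adjusted p is under 0.05 and n.c. marks the others. H2-D1 reaches 2.12 in t-VK12653 minus Control, and B2m reaches −3.79 in VQ-D5 minus t-VK12653.

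B2m, the light chain of every classical class I molecule, had 1995, 1893, 2188 and 1932 CPM in the 4 VQ-D1 libraries and 637, 579, 599 and 669.6 CPM in VQ-D2. It had 1075, 1021, 1473 and 879 CPM in VQ-D4 and 412, 354, 359.6 and 269.8 CPM in VQ-D5. In t-VK12653 it had 4422, 4629, 5587 and 6134 CPM, against 3227, 2149 and 2719.7 CPM in Control. No t-VK12653 library overlapped Control or any VQ line, and the 4 VQ lines did not overlap each other. Every step in the order t-VK12653, Control, VQ-D1, VQ-D4, VQ-D2 and VQ-D5 passed edgeR's test, the least certain being VQ-D1 below Control (log2 fold change −0.44, adjusted p = 0.0272). That call was lost when Control library 1 (adjusted p = 0.226), Control library 3 (0.0847), VQ-D1 library 1 (0.0569) or t-VK12653 library 4 (0.0541) was left out, with counts summed per recipient (0.0836) and among bone marrow libraries only (0.122), all with edgeR. The log2 fold change of VQ-D5 was −2.85 against Control (SE 0.178, adjusted p = 2.17e-11) and −3.79 against t-VK12653 (SE 0.174, adjusted p = 1.72e-13), both with edgeR.

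H2-K1, 1 of the 2 classical heavy chains measured, had 1589, 1707, 1776 and 1654 CPM in VQ-D1, 799, 669, 726 and 872 CPM in VQ-D2 and 717, 723, 1149 and 671 CPM in VQ-D4. VQ-D5 had 389, 332, 357 and 257 CPM and t-VK12653 had 3682, 3359, 4565 and 3431 CPM, against 1539, 1222 and 1170.4 CPM in Control. The t-VK12653 libraries were all above the rest and the VQ-D5 libraries all below. Its rise over Control in t-VK12653 was 1.54 (SE 0.18, edgeR adjusted p = 4.83e-07) and its fall in VQ-D5 was −1.89 (SE 0.185, edgeR adjusted p = 2.51e-08), both log2 fold changes. VQ-D1 next to Control and VQ-D4 next to VQ-D2 did not differ past the threshold (edgeR adjusted p = 0.0734 and 0.658). The lower levels in VQ-D2 and VQ-D4 against Control (−0.66 and −0.57 on the log2 scale) were less firm. Without Control library 1 neither was called, at adjusted p of 0.068 for VQ-D2 and 0.119 for VQ-D4 in edgeR's test. The VQ-D4 call was also lost without VQ-D4 library 1 (0.218) or 4 (0.0729).

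H2-D1, the other heavy chain, had 1294, 1422, 1366 and 1326 CPM in VQ-D1, 737, 710.3, 697 and 824 CPM in VQ-D2 and 1201, 1139, 1830.2 and 1264 CPM in VQ-D4. It had 484, 414, 428 and 341 CPM in VQ-D5 and 3201, 3120.5, 4324 and 3835 CPM in t-VK12653, against 954, 829.8 and 695 CPM in Control. Every library of t-VK12653, VQ-D1 and VQ-D4 was above every Control library, and every VQ-D5 library was below. Relative to Control the log2 fold changes were 2.12 in t-VK12653 (SE 0.161, adjusted p = 5.69e-10), 0.81 in VQ-D4 (SE 0.17, adjusted p = 0.000392), 0.69 in VQ-D1 (SE 0.156, adjusted p = 0.000645) and −0.94 in VQ-D5 (SE 0.158, adjusted p = 2.48e-05), all with edgeR. Among bone marrow libraries only, the VQ-D4 value was 0.55 and missed the threshold (edgeR adjusted p = 0.0579). H2-D1 was the only member called higher in VQ-D4, a line in which H2-K1 was called lower.

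The heavy chains and the light chain did not keep a fixed ratio. In deposited TPM, which is scaled to gene length and so allows levels of different genes to be compared, H2-K1 and H2-D1 together amounted to 0.774 ± 0.0515 of B2m in VQ-D1 and 1.23 ± 0.0373 in VQ-D2, 0.987 ± 0.0959 in VQ-D4 and 1.09 ± 0.0259 in VQ-D5 (SD, n = 4 each). The ratio was 0.728 ± 0.0949 in t-VK12653 (SD, n = 4), against 0.411 ± 0.0696 in Control (SD, n = 3). H2-K1 over H2-D1 was 1.31 in VQ-D1 and 1.09 in VQ-D2, 0.63 in VQ-D4 and 0.842 in VQ-D5, with 1.1 in t-VK12653, against 1.68 in Control, as group means of TPM ratios. These ratios were not tested.

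Counts of class I heavy chains carry an uncertainty of their own. Of the 50-base words in H2-K1 transcripts 9.63% also occur in 1 or more of 24 other genes, and for H2-D1 12.8% occur in 1 or more of 103 others. The row labelled H2-L ran with H2-D1 in every library, at 0.861 to 0.909 of its count, so that part of the reads of one may also be counted for the other. The genes H2-Q7 and H2-Q9 had equal counts in all 23 libraries. B2m shared no such word with another gene.

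Tapbp, tapasin, had 535, 519.6, 497 and 526 CPM in VQ-D1, 100.3, 109, 98.1 and 113 CPM in VQ-D2, 279.7, 193, 360.1 and 169 CPM in VQ-D4 and 69.95, 75.7, 80.7 and 57.5 CPM in VQ-D5. It had 701, 678, 869 and 811 CPM in t-VK12653, against 463, 364 and 477 CPM in Control. No library of VQ-D2, VQ-D4 or VQ-D5 reached the lowest Control library, and every t-VK12653 and VQ-D1 library was above the highest. The log2 fold changes from Control were −2.50 in VQ-D5 (SE 0.185, adjusted p = 3.82e-10), −1.95 in VQ-D2 (SE 0.198, adjusted p = 6.85e-08), −0.65 in VQ-D4 (SE 0.187, adjusted p = 0.00573) and 0.80 in t-VK12653 (SE 0.171, adjusted p = 0.000471), all with edgeR. In VQ-D1 the libraries did not overlap Control, but the difference missed the threshold (edgeR adjusted p = 0.236). Over the centred log2 means of the 6 groups, Tapbp and B2m differed by a root mean square of 0.28. Exons of Tapbp overlap those of Zbtb22 on the same strand, so some of its reads cannot be assigned to 1 gene.

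The transporter genes moved less, and were not called against Control in all the same lines. Over the centred log2 means of the 6 groups, Tap1 and Tap2 differed by a root mean square of 0.42, where H2-K1 and H2-D1 differed by 0.45. Tap2 ranged over 185 to 218 CPM in VQ-D1, 83.0 to 96.8 CPM in VQ-D2, 62.4 to 126 CPM in VQ-D4, 73.4 to 92.5 CPM in VQ-D5 and 286 to 342 CPM in t-VK12653, against 158 to 205 CPM in Control. It was lower than Control in VQ-D2 (−0.94), VQ-D4 (−0.73) and VQ-D5 (−1.12) and higher in t-VK12653 (0.78), as log2 fold changes at edgeR adjusted p of at most 8.05e-05. Tap1 ranged over 159 to 189.8 CPM in VQ-D1, 144 to 156 CPM in VQ-D2, 64.7 to 125 CPM in VQ-D4, 93.7 to 125 CPM in VQ-D5 and 184 to 297 CPM in t-VK12653, against 132 to 162 CPM in Control. It was called lower than Control in VQ-D4 (log2 fold change −0.68, edgeR adjusted p = 0.00956), without VQ-D4 library 1 only at −0.29 (edgeR adjusted p = 0.222). It was called higher in t-VK12653 (0.61, edgeR adjusted p = 0.00776), without t-VK12653 library 3 at 0.40 (edgeR adjusted p = 0.0726). In VQ-D2, where Tap2 was called lower, the Tap1 libraries lay within the Control range (edgeR adjusted p = 0.952).

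Nlrc5 varied least. It had 54.5 to 77.8 CPM in VQ-D1, 55.5 to 63.6 CPM in VQ-D2, 47.4 to 118 CPM in VQ-D4, 32.9 to 65.4 CPM in VQ-D5 and 56.2 to 80.1 CPM in t-VK12653, against 67.5 to 118 CPM in Control. All VQ-D2 and VQ-D5 libraries were below Control and the other lines overlapped it, and the highest VQ-D4 value was the liver library. The gene was called lower than Control in VQ-D5 (log2 fold change −0.81, SE 0.206, edgeR adjusted p = 0.00171) and VQ-D4 (−0.55, SE 0.22, edgeR adjusted p = 0.0391). The VQ-D4 call was lost in 8 of the 23 fits that each left out 1 library, with a log2 fold change of −0.30 and an adjusted p of 0.275 in edgeR's test when Control library 1 was left out. It was −0.33 with no tissue term (edgeR adjusted p = 0.268) and −0.01 with counts summed per recipient (edgeR adjusted p = 0.978). The liver library does not enter the VQ-D4 estimate, because it is the only one of its tissue. No VQ line was called different from t-VK12653 (edgeR adjusted p from 0.0697 in VQ-D5 to 0.969 in VQ-D2), while the class I heavy chains were called lower than t-VK12653 in every VQ line. The range of the 6 group means spanned 0.93 log2 units for Nlrc5, 3.50 for H2-K1 and 3.90 for B2m; the median was 1.99 for the 10 members and 1.67 for all tested genes, and 80.6% of all tested genes spanned less than H2-K1. Per length Nlrc5 was the lowest member in each group, with means of 15.96 to 32.0 TPM, and B2m was the highest, with means of 933 to 11816 TPM.

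The immunoproteasome subunits split from the presenting molecules, most of all Psmb10. This subunit, which replaces Psmb7, had 16.5, 18.3, 22.2 and 22.4 CPM in VQ-D1, 67.9, 66.8, 60.9 and 66.9 CPM in VQ-D2, 14.99, 14.5, 15.6 and 20.8 CPM in VQ-D4 and 46.0, 52.1, 45.2 and 54.6 CPM in VQ-D5. It had 16.6, 16.4, 21.7 and 14.8 CPM in t-VK12653, against 47.3, 52.5 and 43.1 CPM in Control. VQ-D1, VQ-D4 and t-VK12653 were below Control in every library, VQ-D2 was above it in every library, and VQ-D5 overlapped it. The log2 fold changes from Control were −1.23 in VQ-D1 (SE 0.158, adjusted p = 8.6e-07), −1.50 in VQ-D4 (SE 0.179, adjusted p = 3.96e-07) and −1.45 in t-VK12653 (SE 0.163, adjusted p = 1.41e-07) with edgeR. The rise in VQ-D2 was 0.45 (SE 0.175, edgeR adjusted p = 0.0302) and was lost in 7 of the 23 fits without 1 library (adjusted p up to 0.0992, without VQ-D2 library 1), with RLE scaling (0.37, adjusted p = 0.0755) and with DESeq2 (adjusted p = 0.0679). Against t-VK12653, Psmb10 was higher in VQ-D2 by 1.91 (SE 0.152) and in VQ-D5 by 1.49 (SE 0.154) on the log2 scale, at edgeR adjusted p = 4.91e-10 and 2.24e-08.

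Psmb9, which replaces Psmb6, had 37.5, 45.3, 41.9 and 49.5 CPM in VQ-D1, 61.8, 50.7, 52.8 and 74.6 CPM in VQ-D2, 11.1, 12.5, 21.4 and 14.7 CPM in VQ-D4 and 51.3, 54.2, 58.8 and 44.9 CPM in VQ-D5. It had 44.9, 49.5, 71.9 and 61.4 CPM in t-VK12653, against 69.7, 48.1 and 60.2 CPM in Control. VQ-D4 stood alone below the rest, and VQ-D1, VQ-D2, VQ-D5 and t-VK12653 all overlapped Control. VQ-D4 was lower than Control by a log2 fold change of −2.06 (SE 0.244, edgeR adjusted p = 4.22e-07) and lower than t-VK12653 by −1.92 (SE 0.221, edgeR adjusted p = 3.4e-07). VQ-D1 was called lower than Control at −0.52 (edgeR adjusted p = 0.0324), a call lost in 5 of 23 fits without 1 library, with adjusted p up to 0.188 without Control library 1, and with counts summed per recipient (−0.40, edgeR adjusted p = 0.0756). Exons of Psmb9 and Tap1 overlap on opposite strands, and the sources used here do not state whether counting used the strand.

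Psmb8, which replaces Psmb5, ranged over 304 to 418 CPM in VQ-D1 and 239.7 to 296 CPM in VQ-D2, 68.7 to 171 CPM in VQ-D4 and 235 to 273 CPM in VQ-D5, with 314 to 459 CPM in t-VK12653, against 211 to 268 CPM in Control. VQ-D4 again lay wholly below the other groups, while VQ-D1 and t-VK12653 lay wholly above Control. The log2 fold changes from Control were 0.62 in VQ-D1 (SE 0.148, adjusted p = 0.00112), −0.72 in VQ-D4 (SE 0.162, adjusted p = 0.000695) and 0.67 in t-VK12653 (SE 0.146, adjusted p = 0.00046), with edgeR.

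Set against their constitutive partners, the 3 subunits took different shares of their pairs in deposited TPM. Psmb8 made up 88.0 ± 1.22% of Psmb8 plus Psmb5 in VQ-D1 and 85.1 ± 0.795% in VQ-D2, 69.8 ± 4.38% in VQ-D4 and 81.6 ± 1.89% in VQ-D5, with 94.8 ± 1.42% in t-VK12653 (SD, n = 4 each), against 91.1 ± 0.84% in Control (SD, n = 3). Psmb9 made up 29.2 ± 2.14% of Psmb9 plus Psmb6 in VQ-D1 and 41.2 ± 4.13% in VQ-D2, 12.4 ± 2.48% in VQ-D4 and 34.7 ± 2.99% in VQ-D5, with 41.4 ± 3.01% in t-VK12653 (SD, n = 4 each), against 49.97 ± 5.04% in Control (SD, n = 3). Psmb10 made up 18.4 ± 1.75% of Psmb10 plus Psmb7 in VQ-D1 and 40.5 ± 2.09% in VQ-D2, 17.6 ± 2.65% in VQ-D4 and 27.8 ± 3.04% in VQ-D5, with 20.3 ± 2.53% in t-VK12653 (SD, n = 4 each), against 48.8 ± 5.48% in Control (SD, n = 3). All 3 shares were lowest in VQ-D4 by group mean. The share of Psmb8 was higher in t-VK12653 than in Control in every library, and those of Psmb9 and Psmb10 were lower.

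Exact two-sided permutation tests of the shares were run for all 15 pairs of groups, 45 tests in all. Between 2 lines the smallest p that 4 against 4 libraries can give is 0.0286, which came to an adjusted p of 0.0536 in these tests. Between a line and Control, 4 against 3, it is 0.0571 (adjusted p = 0.0677 in these tests), above 0.05 even before adjustment. No pair passed 0.05 after adjustment. The permuted libraries share a donor, and the tests take no account of tissue. For Psmb9 the exact permutation p was 0.914 between VQ-D2 and t-VK12653, with mean shares 0.268 percentage points lower in VQ-D2. For Psmb10 it was 0.571 between VQ-D1 and VQ-D4, 0.286 between VQ-D1 and t-VK12653 and 0.2 between VQ-D4 and t-VK12653.

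**Figure D3:**
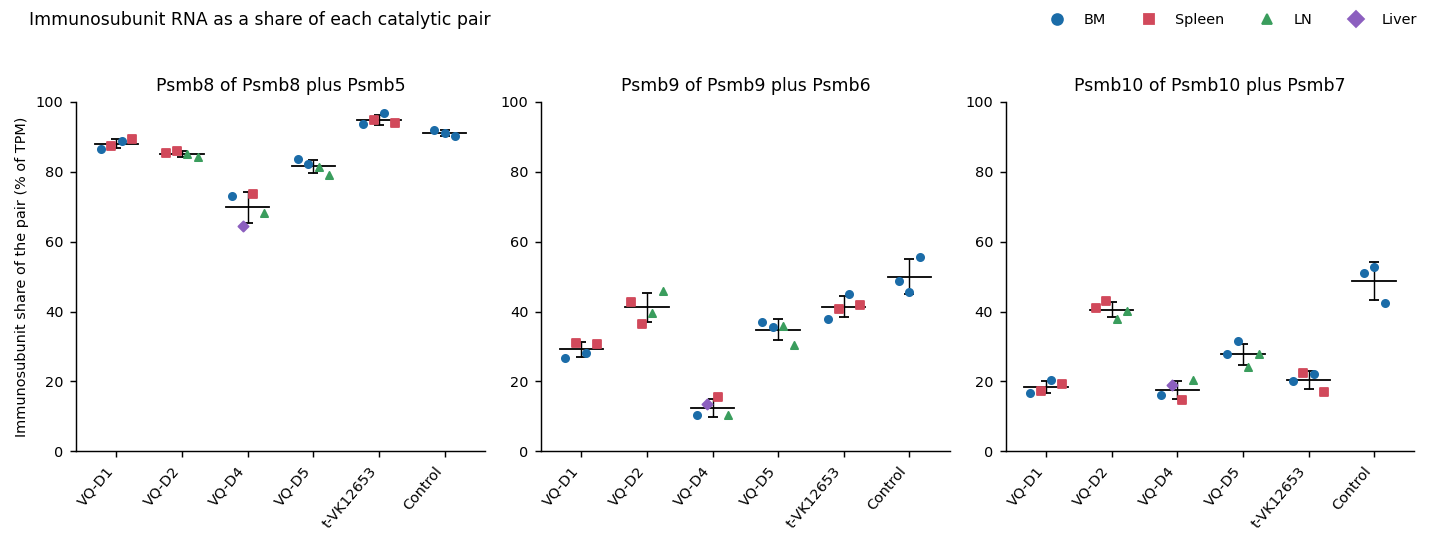
Share of each immunosubunit in the TPM of its catalytic pair, in percent from 0 to 100; 1 panel per pair, points are libraries coloured by tissue (BM, bone marrow; LN, lymph node) and black lines are group means with SD. VQ-D4 has the lowest mean in every panel (69.8%, 12.4% and 17.6%), and the Psmb10 shares of VQ-D1, VQ-D4 and t-VK12653 lie together below those of VQ-D2.

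The constitutive partners differed between groups too. Psmb5, Psmb6 and Psmb7 were each higher than Control in every VQ line and in the VQ line sums. Over all tested genes, 27.5% to 31.2% were called higher than Control in the VQ lines and 13.7% in the line sums. All 3 were also higher in the mean of the VQ lines than in t-VK12653, where 61.2% of all tested genes were called (29.6% higher, 31.6% lower). Psmb5 averaged 34.6 ± 0.971 CPM in VQ-D1 and 33.7 ± 3.42 CPM in VQ-D2, 35.4 ± 6.7 CPM in VQ-D4 and 41.7 ± 3.09 CPM in VQ-D5 (SD, n = 4 each). It averaged 14.4 ± 3.28 CPM in t-VK12653 (SD, n = 4) and 16.3 ± 1.43 CPM in Control (SD, n = 3). The log2 fold change of Psmb5 between the mean of the VQ lines and t-VK12653 was 1.33 (SE 0.125, edgeR adjusted p = 5.52e-09).

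The VQ lines could also be set against each other. VQ-D1 had 5 members higher and 1 lower than VQ-D2, where 51.3% of genes were called (24.8% higher, 26.5% lower). It had 7 higher than VQ-D4, where 41.2% were called (20.4% higher, 20.8% lower), and 8 higher and 1 lower than VQ-D5, where 58.5% were called (28.8% higher, 29.7% lower). VQ-D2 had 4 higher and 3 lower than VQ-D4, where 57% were called (29.4% higher, 27.6% lower), and 5 higher than VQ-D5, where 38.6% were called (18.6% higher, 20% lower). VQ-D4 had 5 higher and 3 lower than VQ-D5, where 58.7% were called (29.1% higher, 29.6% lower). The members higher in VQ-D4 than in VQ-D5 were B2m, H2-K1, H2-D1, Tap2 and Tapbp, and the 3 lower were Psmb8, Psmb9 and Psmb10, with log2 fold changes from 0.40 (Tap2) to 1.85 (Tapbp) and from −0.97 (Psmb8) to −1.81 (Psmb9). VQ-D4 combined more RNA of the presenting molecules than VQ-D5 with less of the immunosubunits. VQ-D4 also had less RNA of the immunosubunits than VQ-D2. For VQ-D2 minus VQ-D4, Psmb10 was at 1.96 (SE 0.159) and Psmb9 at 1.94 (SE 0.218) on the log2 scale, at edgeR adjusted p = 1.05e-09 and 1.64e-07. Of these calls, that of Nlrc5 higher in VQ-D1 than in VQ-D5 was lost in 16 of 23 fits without 1 library (adjusted p up to 0.129) and that of Psmb8 in the same pair in 4 of 23 (up to 0.0819), both in edgeR's test. The calls of Tapbp and Psmb10 between VQ-D2 and VQ-D5 were lost without VQ-D2 library 4 (edgeR adjusted p = 0.0523) and without VQ-D5 library 3 (edgeR adjusted p = 0.0769). Tap2 was not called between VQ-D4 and VQ-D5 with counts summed per recipient (log2 fold change 0.09, edgeR adjusted p = 0.738), with no tissue term (0.26, 0.112) or among bone marrow libraries only (0.29, 0.306).

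No member was called for a difference between tissues. In the fit with terms for line and tissue, 0 members were called for spleen minus bone marrow, lymph node minus bone marrow or lymph node minus spleen, with 0%, 0.0155% and 0.0311% of genes called by edgeR. None of the 10 had an unadjusted p under 0.05 in any of the 3, and DESeq2 called none. The largest member difference was 0.26 on the log2 scale, for lymph node minus bone marrow. For no member was the difference of spleen minus bone marrow called different between VQ-D1 and t-VK12653 (0 called by edgeR, 0 at an unadjusted p under 0.05, 0 by DESeq2; 0% of genes called by edgeR). VQ-D2 has no bone marrow library and Control has only bone marrow, so for these groups line and tissue rest on the other lines' tissue differences.

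Genes around the members were taken from lists of class I biology. Among 18 tested class I and class I-like heavy chains other than the members, 14 were lower and 1 higher in the mean of the VQ lines than in t-VK12653 (median log2 fold change −1.61, against 0.02 over all genes), where 61.2% of genes were called (29.6% higher, 31.6% lower). Of these 18, 4 had counts in a nearly fixed ratio to those of another gene, H2-L at 0.861 to 0.909 of H2-D1 and the other 3 at 0.963 to 1.01 of their partners. Leaving them out, 10 of 14 were lower and 1 higher. Against Control, 9 of these 14 were higher and 1 lower in t-VK12653, where 56.9% of genes were called (28.8% higher, 28.1% lower). In VQ-D5 none was higher and 9 were lower, where 63.8% were called (31.2% higher, 32.5% lower). H2-Q2, a nonclassical heavy chain, averaged 12.0 ± 4.98 CPM in VQ-D1 and 10.6 ± 3 CPM in VQ-D2, 3.11 ± 1.21 CPM in VQ-D4 and 1.46 ± 0.56 CPM in VQ-D5, with 58.4 ± 15.7 CPM in t-VK12653 (SD, n = 4 each), against 10.1 ± 4.34 CPM in Control (SD, n = 3). Its log2 fold change in the VQ mean against t-VK12653 was −3.68 (SE 0.234, edgeR adjusted p = 2.18e-11), and those of H2-Q4 and H2-Q6 were −2.15 and −2.12.

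Of 10 genes for folding and peptide loading in the endoplasmic reticulum, 5 were higher and 1 lower in the VQ mean than in t-VK12653, a share called that is near the 61.2% of all tested genes (29.6% higher, 31.6% lower). Calr, calreticulin, which holds new heavy chains for loading, was higher by 1.59 (SE 0.0994, edgeR adjusted p = 9.18e-12) on the log2 scale, Pdia3, its disulphide isomerase partner, by 1.02 and the chaperone Hspa5 by 0.87. Canx, calnexin, was not called there (edgeR adjusted p = 0.494). Erap1, which trims peptides to class I length, was the 1 lower gene, at −0.66. All 3 genes of the proteasome activator PA28 were higher in the VQ mean, with Psme2 at 0.99, Psme3 at 0.89 and Psme1 at 0.62 on the log2 scale.

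Transcription factors that act on class I promoters were called in both directions, with 8 of 18 higher and 4 lower in the VQ mean than in t-VK12653, a share called that is near the 61.2% of all tested genes. Nfkb2 and Relb, subunits of the alternative NF-kB pathway, were lower, with log2 fold changes of −2.74 (SE 0.231) and −2.52 (SE 0.295) (edgeR adjusted p = 1.79e-08 and 3.6e-07). Relb averaged 30.0 ± 6.89 CPM in VQ-D1 and 1.82 ± 0.919 CPM in VQ-D2, 9.79 ± 4.72 CPM in VQ-D4 and 1.0 ± 0.69 CPM in VQ-D5, with 25.2 ± 6.82 CPM in t-VK12653 (SD, n = 4 each), against 38.4 ± 1.36 CPM in Control (SD, n = 3). VQ-D5 had 28 reads of Relb in its 4 libraries. The part of these factors in the members' levels was not tested. Irf2 was higher in the VQ mean by 0.95, Rfx5, part of the complex that recruits Nlrc5, was lower at −0.29, and Irf1, an interferon regulatory factor, was not called (edgeR adjusted p = 0.0643).

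Jak1, the kinase shared by the receptors of type I and type II interferons, was nearly unread in t-VK12653. The 4 t-VK12653 libraries held 10 reads of it in all, 1 to 7 per library, or 0.577 CPM with a 95% exact Poisson interval of 0.276 to 1.06 CPM that covers counting error only. It averaged 106 ± 4.29 CPM in VQ-D1 and 201 ± 25.2 CPM in VQ-D2, 13.1 ± 4.56 CPM in VQ-D4 and 201 ± 19.5 CPM in VQ-D5 (SD, n = 4 each), and 222 ± 49.5 CPM in Control (SD, n = 3), with at least 36 reads in each of these 19 libraries. The part of Jak1 in the members' levels was not tested. Of 8 interferon receptor and kinase genes, 1 (Jak1) was higher and 5 were lower in the VQ mean than in t-VK12653, among them Ifnar2 (−1.56) and Ifngr2 (−1.26), receptor chains for type I and type II interferon. Over all tested genes 61.2% were called there, 29.6% higher and 31.6% lower.

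**Figure D4:**
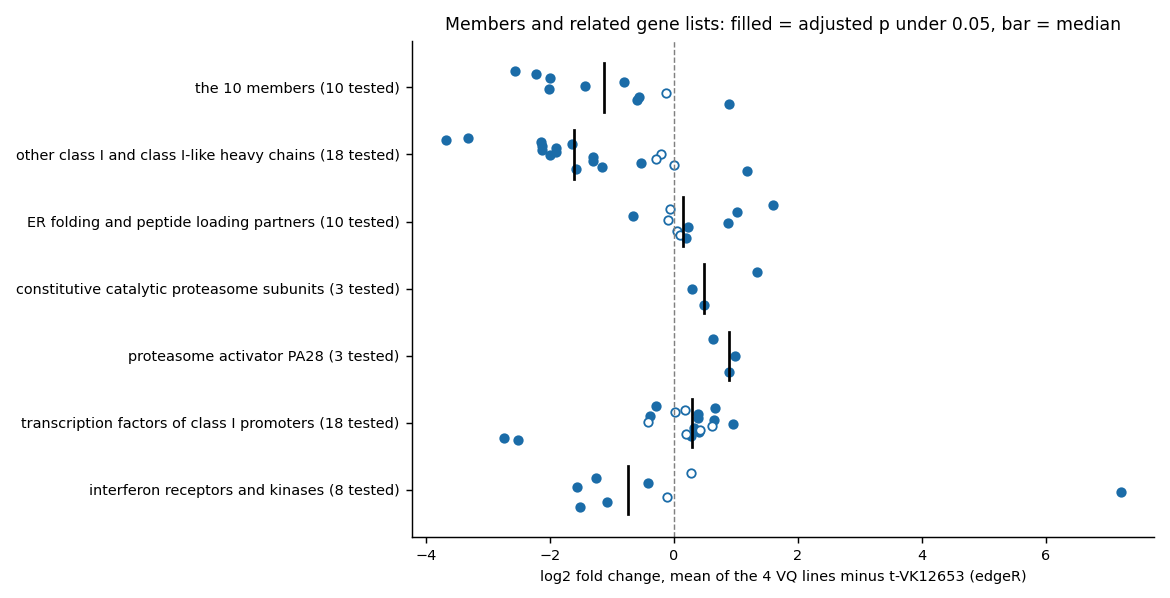
Log2 fold changes of the mean of the 4 VQ lines minus t-VK12653 for the members and 6 related gene lists; each circle is a gene, filled where the edgeR adjusted p is under 0.05, and black bars are medians over tested genes. Members and other heavy chains lie mostly below 0 (medians −1.12 and −1.61), constitutive subunits and PA28 genes lie above 0, and the circle at 7.21 is Jak1.

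The mean profile of the 10 members over the 6 groups, centred log2 CPM, was compared with that of every tested gene. With predicted genes and small RNA left out, the 10 genes outside the set with the smallest root mean square difference were Il18bp (0.086), Neu3 (0.113), D17H6S53E, Armc9, Mypop, Rad51d, Zfp595, Zfp85, Ifngr2 and Gemin7 (0.175). Il18bp encodes a secreted binding protein of interleukin 18 and Ifngr2 the second chain of the interferon-gamma receptor. The level of Il18bp rests on few reads, 2 to 45 per library, with 18, 43 (liver), 2 and 4 in the VQ-D4 libraries. Whether the 10 genes share a role was not tested. Every member lay farther from that mean than each of these 10 genes. Tap2 was the nearest member at 0.208 and Tap1 was at 0.263, while Psmb10 was at 1.15 and ranked 9385 of 12867 by nearness.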

How the data were processed

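Per the labels' protocols, total RNA was purified with the RNeasy Micro kit and made into libraries with a SMARTer stranded kit for picogram inputs. The submitters' processing notes name STAR, featureCounts, DESeq2, GRCm38 and mm10. The sources used here give no versions, settings or annotation. Per the file headers, each table holds a count, an FPKM and a TPM value for each of 24063 gene symbols. The deposited counts are whole and not normalized, and they entered every test of levels. The deposited FPKM values are scaled to depth and gene length by the authors and gave only relative gene lengths. The deposited TPM values, also per length, gave the subunit shares and ratios between genes.

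Levels were compared with the quasi-likelihood test of edgeR in its robust form (edgeR 4.0.16, limma 3.58.1, R 4.3.3) with TMM scaling, the filterByExpr filter (minimum count 10, minimum total 15), terms for group and tissue over 23 libraries, and Benjamini-Hochberg adjustment over 12867 genes at 0.05. VQ line sums were compared with Control without a tissue term, over 13870 genes. The liver library fixes its own tissue term and drops out of the VQ-D4 estimate. Shares were compared by exact permutation tests (SciPy 1.17.1). Values per library are TMM-scaled CPM, and group means for profiles used log2 CPM with a prior count of 2. The scripts were tested on simulated counts.

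Alternatives were RLE scaling, library totals, no filter, DESeq2 1.42.0, no tissue term, a replicate block, bone marrow only, counts summed per recipient number in the table names or per donor line, leaving out abundant non-coding RNA, single lines and single libraries. The members and lists were chosen with earlier results of these data known. All 10 members were named, with up to 3 genes from each related list (largest change between the VQ mean and t-VK12653 among called genes reaching 10 CPM), direct partners of the members and the 10 genes of nearest profile. Libraries of a line share a donor and some share a recipient, so p-values measure the spread between these libraries, not between tumours. Within each group, all pairs of libraries differed by more than sampling noise. A gene of the related lists is not reported here.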

Additional observations from a re-analysis of the deposited data

Results flagged for a closer look

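In 4 of 50 combinations of a member and a line, 1 of the 4 libraries stood apart from the others by Dixon's criterion (0.829 for 4 samples), which chance meets in about 1 of 20 groups. H2-K1 was 1149 CPM in VQ-D4 library 3 (spleen), where the other 3 VQ-D4 libraries had 671 to 723 CPM. Psmb8 was 235 CPM in VQ-D5 library 4 (lymph node), where the others had 266 to 273 CPM. Psmb10 was 60.9 CPM in VQ-D2 library 3 (lymph node), where the others had 66.8 to 67.9 CPM, and 20.8 CPM in VQ-D4 library 4 (lymph node), where the others had 14.5 to 15.6 CPM.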

How the results depend on the processing

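No called fold change of a member reversed under any alternative. Of 1164 values under alternatives other than leaving out 1 library, 1117 kept their call and 47 lost it. Counts summed per recipient ended 10 of 115 calls, counts summed per donor line 9 of 9, bone marrow libraries alone 8, and each other alternative at most 4. Leaving out 1 library at a time kept 2573 of 2645 values, and 100 of the 115 combinations of member and comparison were called whichever library was left out. The count of members called in VQ-D1 minus Control was 3 to 6 with 1 library left out (5 with all), and 3 without VQ-D1 library 1 and VQ-D4 library 2, the 2 tumour libraries with most RNA of other cells, an alternative chosen after seeing the data. VQ line sums minus Control gave 0 calls with edgeR, 1 with DESeq2, 2 without VQ-D1, and 7, all lower, when the lines were averaged within the fit of 23 libraries. The mean of the VQ lines minus t-VK12653 gave 9 calls, and 0 with counts summed per donor line. VQ-D2 minus VQ-D5 gave 5 calls, 4 to 6 with 1 library left out, and 8 with library totals. Leave-one-out counts were 4 to 5 for VQ-D2, 7 to 10 for VQ-D4, 6 to 7 for VQ-D5 and 7 to 9 for t-VK12653 minus Control. The span between the highest and lowest group mean share was 24.98 percentage points for Psmb8 (23.2 to 26.3 with 1 library left out), 37.5 for Psmb9 (34.8 to 39.7) and 31.2 for Psmb10 (29.2 to 34.4). Except where a setting uses fewer samples, the cause of a lost call was not tested.

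Library totals moved the median of all genes by −0.16 for t-VK12653 minus Control, 0.15 for the VQ mean minus t-VK12653 and 0.26 for VQ-D2 minus t-VK12653 on the log2 scale. They changed the share of calls that were higher to 46.2% from 59.7% for VQ line sums minus Control, to 63.3% from 50.6% for VQ-D1 and to 64.2% from 51.9% for VQ-D2 minus t-VK12653, to 62.1% from 51.5% for VQ-D2 minus VQ-D4 and to 65.9% from 48.2% for VQ-D2 minus VQ-D5. RLE scaling moved the median of line sums minus Control by −0.11. The replicate numbers of the labels did not pair libraries across groups (mean correlation of deviations 0.0084 for the same number, −0.0028 for others, 7 of 23 libraries best with their own number). With the replicate block, VQ-D4 minus Control gave 9 calls, and Nlrc5 there had an adjusted p of 0.0607 with edgeR. The block ended 4 of 115 calls. Psmb10 and Psmb9 rest on the fewest reads, with at least 46 counts of each member in every library.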
